A study of Mus musculus with 6 samples.

Results

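The BCL2 family genes described here were 10 genes taken by symbol from the deposited count table, out of 53733 rows that carry a symbol. They are 4 survival genes (Bcl2, Bcl2l1, Mcl1 and Bcl2a1b), the pore-forming effectors Bax and Bak1, and 4 genes of the BH3-only class (Bcl2l11, Bad, Bid and Bmf). Bcl2a1b stands for a set of near-identical gene copies that share reads. RNA came from a mouse acute myeloid leukaemia line made from foetal liver cells that carried 2 retroviral vectors, one expressing MLL-AF9 constantly together with a luciferase and the other expressing FLT3-ITD and DsRED under doxycycline control. The line was given by tail vein to immunodeficient NSG mice, and all mice received doxycycline during 96 h of engraftment. In the OFF group (3 mice), doxycycline was then withdrawn for 48 h, which depletes the FLT3-ITD transgene while MLL-AF9 stays on. In the ON group (3 mice), doxycycline was continued. Because every sample came from the same line, the spread between mice does not cover differences between independently made leukaemias, and doxycycline itself differed between the groups together with FLT3-ITD.

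Proteins of the BCL2 family decide whether the outer mitochondrial membrane is opened, the step that commits most cells to apoptosis. BAX and BAK1 form the openings, the survival proteins BCL2, BCL-XL (Bcl2l1), MCL1 and A1 (Bcl2a1) hold them back, and BH3-only proteins such as BIM (Bcl2l11), BAD, BID and BMF bind the survival proteins or activate the effectors. In human leukaemia cells, FLT3-ITD signalling is known to sustain MCL1 through STAT5, and BCL2 is the target of a drug in clinical use against acute myeloid leukaemia.

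Each mouse gave 1 library, with totals of 8729496 to 9329917 counts in OFF and 8347588 to 8810022 counts in ON, and 1 count was worth between 0.11 and 0.124 CPM (counts scaled to a common library size with TMM factors). OFF replicate 3 stood farthest from its group: the chi-square of the counts, divided by its degrees of freedom, was 27.9 and 39.7 for OFF pairs that included it, 6.79 for the other OFF pair and 2.95 to 9.14 among ON pairs. This measure included the ribosomal RNA locus rows. They held 17.96%, 17.21% and 10.14% of the counts with a symbol in OFF and 12.13%, 11.29% and 16.22% in ON. Their part in the distance of OFF replicate 3 was not tested. The mouse Flt3 row averaged 6.81 CPM in OFF and 5.65 CPM in ON and was not called (adjusted p = 0.387); a count at the 3′ end of the mouse gene need not read a vector transcript, so it is no check of the labels. The myeloid genes Ptprc (CD45), Spi1, Mpo and Elane averaged 186, 194, 801 and 1622 CPM in OFF and 119, 168, 300.4 and 838 CPM in ON, while the progenitor receptor Kit lay near 0 (0.294 CPM in OFF and 0.269 CPM in ON). The 10 myeloid markers summed to 3154 to 3356 CPM in OFF and 1553 to 1811 CPM in ON.

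Several marker lists differed between the groups, and their part in the results below was not tested. The summed level of 8 mature neutrophil markers was 11290 to 18940 CPM in OFF and 13380 to 14270 CPM in ON. Of the 8, 6 were called higher in OFF, against 17.3% of all tested rows. The most abundant of the 8, S100a8, was not called and was lower in each OFF library (means of 9431 CPM in OFF and 11550 CPM in ON). Cxcr2 was not called either. The 9 erythroid markers summed to 576 to 931 CPM in OFF and 149.6 to 212 CPM in ON. These sums were nearly all globin, led by Hba-a1 and Hba-a2 (295 and 281 CPM in OFF, 69.8 and 69.0 CPM in ON). All 5 tested markers, the globin genes and Alas2, were called higher in OFF, against 17.3% of all tested rows. Alas2 averaged 1.95 CPM in OFF and 0.465 CPM in ON. Among the untested markers, Slc4a1 averaged 0.848 and 0.193 CPM and Klf1 0.478 and 0.458 CPM in OFF and ON. The erythroid receptor gene Epor had 0, 0 and 2 counts in OFF and 0 in each ON library. The 8 B cell markers summed to 9.75 to 13.6 CPM in OFF and 3.18 to 6.49 CPM in ON, mostly Ighm and Vpreb1. The 8 macrophage markers summed to 35.4 to 40.7 CPM in OFF and 42.6 to 48.0 CPM in ON, with Spic at 0 throughout. Of the 3 that were tested, Adgre1 (16.2 CPM in OFF and 4.05 CPM in ON) and Mrc1 (1.47 CPM in OFF and 0.499 CPM in ON) were higher and Vcam1 (19.8 CPM in OFF and 39.7 CPM in ON) was lower. T and NK cell (2.22 to 4.61 CPM in OFF, 1.59 to 3.29 CPM in ON), megakaryocyte (0.777 to 2.63 and 0.371 to 1.139 CPM), mast cell, basophil and eosinophil (8.09 to 9.22 and 5.44 to 8.09 CPM) and stromal or endothelial (7.997 to 11.4 and 6.80 to 10.4 CPM) lists were low in both groups. Cd8a, Cpa3, Fcer1a and Lepr had no counts in any library.

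After FLT3-ITD depletion, the survival genes Bcl2, Bcl2a1b and Mcl1 were lower, and of the BH3-only genes Bad was higher and Bid lower. Bcl2 was 2.97-fold lower, Bcl2a1b 2.25-fold lower and Mcl1 1.33-fold lower in OFF, whereas Bad was 1.42-fold higher. Of the 10 members, 9 had enough counts for the test and Bmf did not. Of those 9, 4 were lower and 1 was higher at an adjusted p under 0.05 (edgeR's quasi-likelihood test, Benjamini-Hochberg over all 13652 tested rows). Across all tested rows 34.8% were called, 17.3% higher and 17.5% lower in OFF, so 5 of 9 members (55.6%) is to be read against a background. The median log2 fold change of the 9 tested members was -0.41, against 0.0043 over all tested rows. Neither contrast carries a test, because the members were chosen with earlier results of these data known. In bulk RNA, fewer cells of a type and less RNA per cell cannot be told apart. The counts of called members depended on single libraries. Without OFF replicate 1, 3 members were higher and 5 lower, and without OFF replicate 2, 1 was higher and 3 lower. Without ON replicate 2, 2 were higher and 2 lower, and without ON replicate 3, 2 were higher and 4 lower. Calls over all rows moved as well, from 2356 higher and 2390 lower with every library. They were 2704 and 2740 without OFF replicate 1, and 1615 and 1679 without ON replicate 2.

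**Figure D1:**
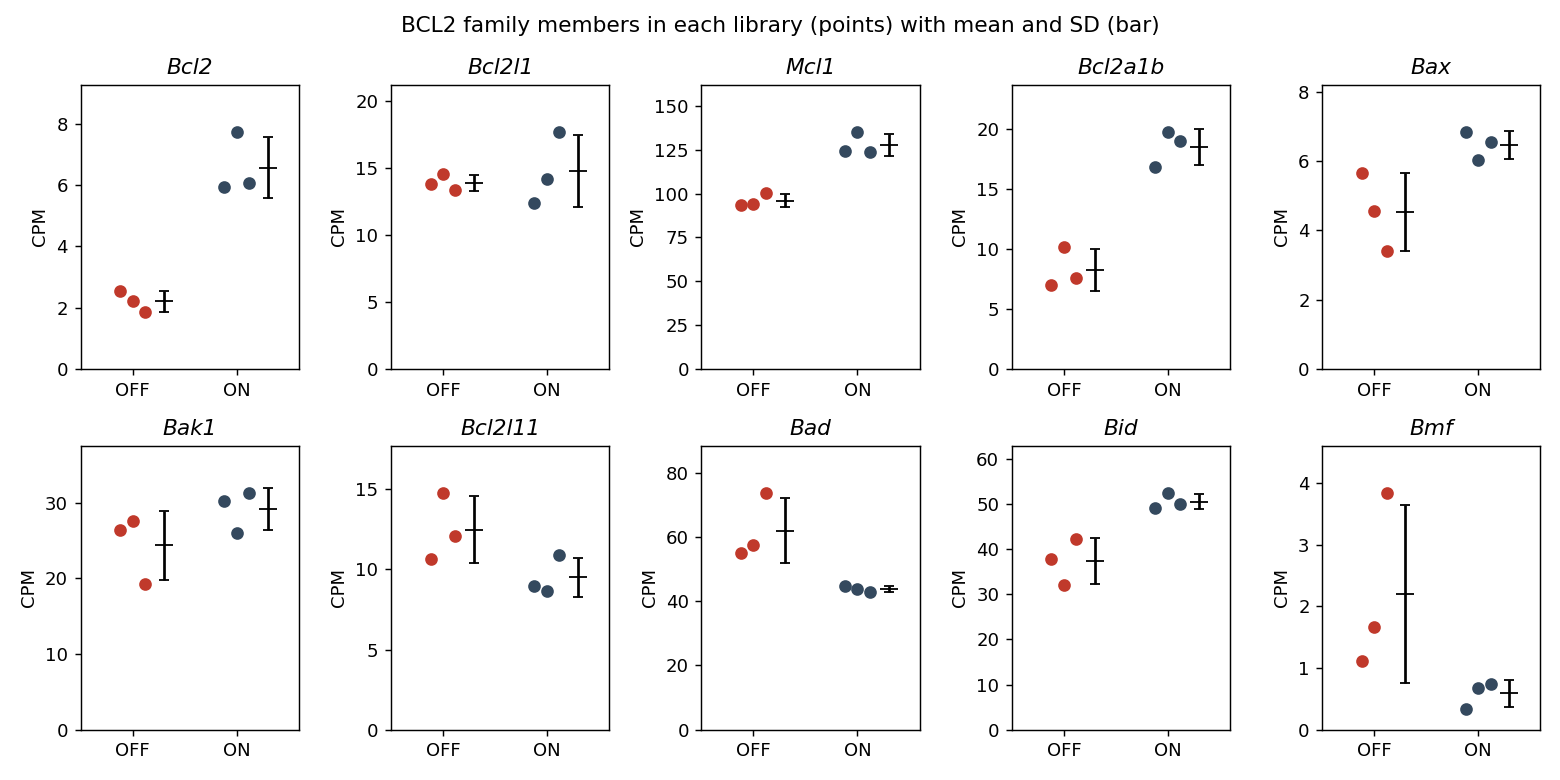
Level in CPM (y axis, from 0, a separate scale for each gene) of the 10 members in the 3 OFF libraries (left, red) and the 3 ON libraries (right, dark), with the mean and SD beside the points. The groups do not overlap for Bcl2, Mcl1, Bcl2a1b, Bax, Bad, Bid and Bmf, and they overlap for Bcl2l1, Bak1 and Bcl2l11. Across all tested rows, the groups do not overlap in 48.3%.

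Among the survival genes, Bcl2 (GRCm38, chromosome 1, 106538178 to 106714274, minus strand), the founding member of the family, had 2.55, 2.22 and 1.86 CPM in OFF, against 5.92, 7.72 and 6.06 CPM in ON. All OFF libraries lay below all ON libraries. The means were 2.21 ± 0.341 CPM in OFF and 6.57 ± 1.00 CPM in ON (SD, n = 3 each), a log2 fold change of -1.57 (SE 0.25, adjusted p = 0.000262). These levels rest on 23, 20 and 17 counts in OFF and 52, 68 and 49 counts in ON. Bcl2 kept its call under all 12 alternatives that gave it a value, with log2 fold changes between -1.68 and -1.43. Across the 6 libraries, the patterns most like that of Bcl2 were, out of 6997 genes averaging 10 CPM or more, those of Ddx3x, Pde12 and Zfp639 (Pearson r of log2 CPM 0.999, 0.999 and 0.997). These points fall into 2 groups of 3 libraries, so the likeness mostly restates that all 3 genes were lower in OFF, with log2 fold changes of -0.66, -0.80 and -0.73.

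Mcl1 (chromosome 3, 95658788 to 95663176, plus strand) encodes a short-lived survival protein on which myeloid cells depend. It had 93.7, 94.0 and 100.5 CPM in OFF, against 124, 135 and 124 CPM in ON. No OFF library reached the lowest ON library, and the distance was small beside that of Bcl2. The means were 96.0 ± 3.84 CPM in OFF and 128 ± 6.35 CPM in ON (SD, n = 3 each; log2 fold change -0.41, SE 0.10, adjusted p = 0.00621). Without ON replicate 2 the log2 fold change was -0.37 and missed the threshold (adjusted p = 0.0509).

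A1, the protein of the Bcl2a1 genes, is a survival protein of granulocytes and mast cells whose gene is a target of NF-kB. Mouse chromosome 9 carries several copies. Bcl2a1b (chromosome 9, 89199209 to 89207827, plus strand) had 6.98, 10.2 and 7.57 CPM in OFF, against 16.9, 19.8 and 19.0 CPM in ON. The lowest ON library was above the highest OFF library. Its means were 8.26 ± 1.73 CPM in OFF and 18.6 ± 1.52 CPM in ON (SD, n = 3 each; log2 fold change -1.17, SE 0.17, adjusted p = 0.000106).

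The rows of Bcl2a1a (chromosome 9, 88956900 to 88962419, plus strand) and Bcl2a1d (chromosome 9, 88723285 to 88731914, minus strand) showed the same change. Bcl2a1a had 15.1, 19.2 and 17.9 CPM in OFF and 36.0, 40.9 and 40.4 CPM in ON (log2 fold change -1.17, SE 0.13, adjusted p = 1.27e-05). Bcl2a1d had 8.97, 11.1 and 9.65 CPM in OFF and 20.8, 23.9 and 22.1 CPM in ON (log2 fold change -1.17, SE 0.14, adjusted p = 2.96e-05). Both sets of libraries were apart, as for Bcl2a1b. The fourth copy, Bcl2a1c, had no counts in OFF and 1 count in the ON libraries together.

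These 3 rows are not independent measurements. The longest annotated transcripts of the 3 copies are 98.2% to 99.1% identical, and their last 400 bases 98.5% to 99.2%. Between 31.3% and 58.4% of the 50-base words in one copy's last 400 bases also occur in another copy's transcript. Reads from such stretches cannot be assigned to a single copy, and how the authors' counting treated them is not given in the sources used here. Of the counts in the 3 rows, Bcl2a1b took 22.5, 25.2 and 21.6 per 100 in OFF and 22.9, 23.4 and 23.3 per 100 in ON, so the split between the rows overlapped in the groups. Summed into 1 row, the copies had 31.0, 40.5 and 35.1 CPM in OFF and 73.8, 84.5 and 81.7 CPM in ON (log2 fold change -1.17, SE 0.12, adjusted p = 8.27e-06), and this sum does not depend on how reads were split among the 3 rows. Of the 8 mature neutrophil markers, which mark cells that also use A1, 6 were called higher in OFF. S100a8 and Cxcr2 were not called, and the summed marker level overlapped between the groups. The part of these markers in this result was not tested.

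**Figure D2:**
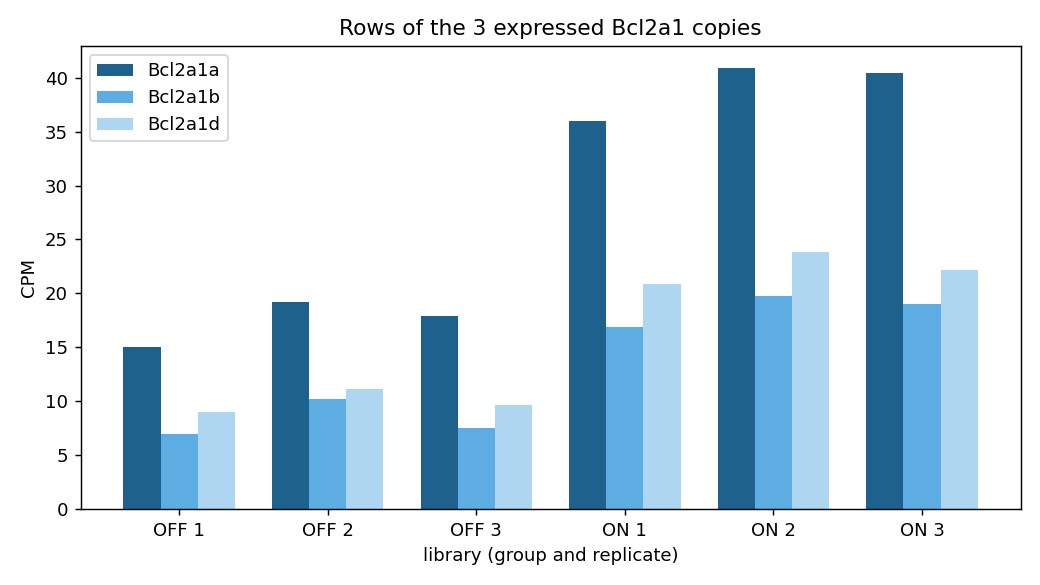
Level in CPM (y axis, bars from 0) of Bcl2a1a, Bcl2a1b and Bcl2a1d in each OFF library and each ON library. All 3 rows are lower in every OFF library, and Bcl2a1b holds 21.6 to 25.2 of every 100 counts in the 3 rows.

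The copies are also alike in a stretch before the start of the gene. The stretches of 107 bases shown next lie before the RefSeq start sites (RefSeq, GRCm38.p6, 5′ to 3′ on the strand of each gene). Capitals mark the 2 positions at which any copy differs. The stretches were aligned without gaps and cut to begin after the last place where differing positions lay close together. Their likeness is therefore partly set by this cut, and the bases further upstream are not shown. Bcl2a1a is chr9:88956813-88956919 on the plus strand, Bcl2a1b chr9:89199122-89199228 on the plus strand and Bcl2a1d chr9:88731851-88731957 on the minus strand. The GENCODE genes whose positions are given above start before the RefSeq start sites, so each stretch runs into the annotated gene at its 3′ end, and that of Bcl2a1d lies mostly inside it. Bcl2a1a and Bcl2a1b differ at 1 position, Bcl2a1b and Bcl2a1d at 1, and Bcl2a1a and Bcl2a1d at 2.
Bcl2a1a: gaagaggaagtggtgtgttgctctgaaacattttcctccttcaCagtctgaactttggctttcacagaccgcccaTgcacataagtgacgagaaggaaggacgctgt
Bcl2a1b: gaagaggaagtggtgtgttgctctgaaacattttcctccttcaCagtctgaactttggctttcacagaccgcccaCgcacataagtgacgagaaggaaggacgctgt
Bcl2a1d: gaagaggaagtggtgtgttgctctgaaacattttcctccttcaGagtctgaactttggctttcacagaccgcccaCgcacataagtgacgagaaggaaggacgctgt

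Bcl2l1 (chromosome 2, 152780668 to 152831728, minus strand), which encodes BCL-XL, did not pass. It had 13.8, 14.6 and 13.4 CPM in OFF and 12.4, 14.2 and 17.7 CPM in ON, and the OFF values lay within the ON range. The log2 fold change was -0.08, with a 95% interval of -0.41 to 0.25, and its sign turned without ON replicate 3, the highest library (0.060). Changes of either sign within that interval are compatible with these libraries.

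Both effector genes gave lower means without passing. Bax (chromosome 7, 45461697 to 45466898, minus strand) had 5.65, 4.55 and 3.40 CPM in OFF and 6.83, 6.02 and 6.56 CPM in ON. The groups did not overlap, as in 48.3% of all tested rows, and the log2 fold change was -0.51 (95% interval -1.0 to -0.03 before adjustment, adjusted p = 0.0962). Without OFF replicate 1 it was -0.70 and passed (adjusted p = 0.0302). Bak1 (chromosome 17, 27019810 to 27029009, minus strand) had 26.4, 27.6 and 19.2 CPM in OFF and 30.2, 26.0 and 31.3 CPM in ON, so the groups overlapped. Its log2 fold change was -0.26, with a 95% interval of -0.57 to 0.06 (adjusted p = 0.193).

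The BH3-only genes went different ways. Bad (chromosome 19, 6941861 to 6951899, plus strand) encodes a protein that neutralises BCL2 and BCL-XL and is held inactive by phosphorylation downstream of growth factor receptors. It had 54.9, 57.4 and 73.7 CPM in OFF, against 44.8, 43.8 and 42.9 CPM in ON. The 3 OFF libraries were all above the ON libraries, and OFF replicate 3 was the highest. The means were 62.0 ± 10.2 CPM in OFF and 43.8 ± 0.914 CPM in ON (SD, n = 3 each; log2 fold change 0.50, SE 0.12, adjusted p = 0.00616). Bad kept its call under all 13 alternatives, with log2 fold changes of 0.36 to 0.58. Its exons share 524 bases with Gpr137, which is read from the other strand and was also higher in OFF (log2 fold change 0.59, adjusted p = 0.0264), but this stretch lies 9430 bases upstream of where Bad ends.

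Bid (chromosome 6, 120891930 to 120916853, minus strand) encodes the link between death receptors and mitochondria, cut by caspase-8. It had 37.9, 32.0 and 42.3 CPM in OFF, against 49.2, 52.5 and 50.1 CPM in ON. The OFF libraries were more scattered than the ON libraries and all lay below them. The means were 37.4 ± 5.19 CPM in OFF and 50.6 ± 1.69 CPM in ON (SD, n = 3 each; log2 fold change -0.44, SE 0.12, adjusted p = 0.0119). This call was lost without OFF replicate 2 (adjusted p = 0.0677) and without ON replicate 2 (adjusted p = 0.0644). The 3′ ends of Bid and of the family gene Bcl2l13 face each other and share 628 exonic bases on opposite strands. Bcl2l13 averaged 12.8 CPM in OFF and 13.4 CPM in ON (log2 fold change -0.07, adjusted p = 0.797), and whether the counting used strand is not given in the sources used here, so reads of this stretch may be split or lost between both genes.

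Bcl2l11 (chromosome 2, 128126038 to 128162547, plus strand) encodes BIM, which binds all survival proteins of the family and whose gene is a known target of FOXO3. It had 10.6, 14.8 and 12.1 CPM in OFF and 8.996, 8.63 and 10.9 CPM in ON. OFF replicate 1 lay below ON replicate 3, so the groups overlapped. The log2 fold change was 0.40 (SE 0.17, 95% interval 0.03 to 0.77 before adjustment) and missed the threshold (adjusted p = 0.0921). Without OFF replicate 1, the lowest of its group, it was 0.50 and passed (adjusted p = 0.0314).

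Bmf (chromosome 2, 118528757 to 118549687, minus strand) encodes a BH3-only protein tied to the cytoskeleton and to loss of cell attachment. It had 10, 15 and 35 counts in OFF and 3, 6 and 6 counts in ON, too few for the filter on low counts, so it was not tested in the main comparison. These equal 1.11, 1.67 and 3.84 CPM in OFF and 0.342, 0.681 and 0.742 CPM in ON. Every OFF library was above every ON library, and OFF replicate 3 was far above the rest. With no filter on low counts the log2 fold change was 1.87 (adjusted p = 0.000996), DESeq2 gave 1.91 (adjusted p = 0.0265), and limma on the authors' log2 table gave 1.34 without passing (adjusted p = 0.104).

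**Figure D3:**
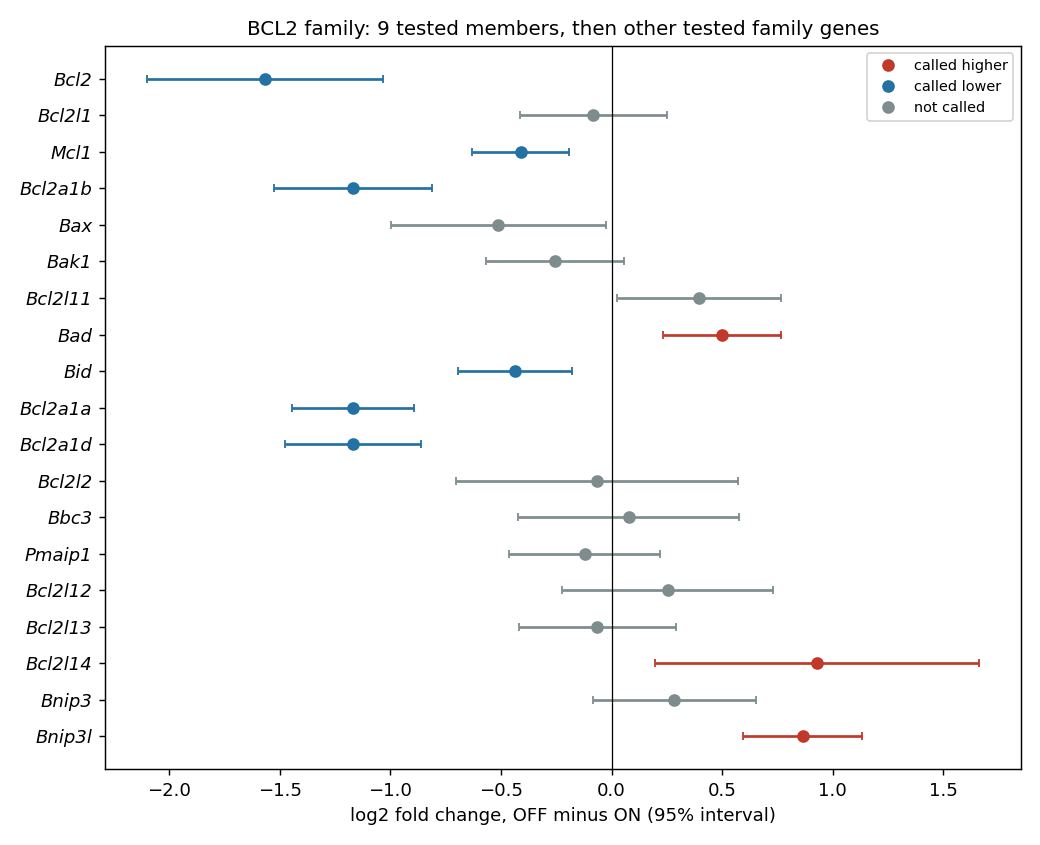
Log2 fold change, OFF minus ON (x axis), with its unadjusted 95% interval for the 9 tested members and 10 other tested genes of the BCL2 family (y axis). Bcl2 and the 3 Bcl2a1 rows lie farthest to the left (-1.57 and -1.17), Mcl1, Bid, Bad, Bcl2l14 and Bnip3l are the other called genes, and grey genes were not called.

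The RefSeq windows before the start sites were searched for letters that FOXO factors (TGTTTAC) and STAT factors (TTCNNNGAA) are known to bind, on both strands, in 250 bases before to 50 bases after each start. All 10 members had at least 1 window, 16 in all. A FOXO match was found in 1 of these 16 windows, that of Bcl2l11, against 3.65% of 32851 windows of all genes. Of the other family genes, only Bcl2a1a, Bcl2a1c, Bcl2a1d and Bbc3 were searched. Among these, Bbc3, which was not called, also had a FOXO match, starting 167 bases before a start site. A STAT match was found in 0 of the 16 windows, against 8.30% of all windows. The Bcl2l11 match starts 227 bases before the RefSeq start site. It is shown with the window of Bcl2, the member with the largest called change, which held neither motif (GRCm38.p6, 5′ to 3′; capitals mark the FOXO match on the reverse strand). The Bcl2l11 stretch is chr2:128125788-128126037 on the plus strand and 72.0% G or C, and the Bcl2 stretch is chr1:106714291-106714540 on the minus strand and 74.8% G or C. A match is a description of letters, and motifs outside these windows were not searched.
Bcl2l11: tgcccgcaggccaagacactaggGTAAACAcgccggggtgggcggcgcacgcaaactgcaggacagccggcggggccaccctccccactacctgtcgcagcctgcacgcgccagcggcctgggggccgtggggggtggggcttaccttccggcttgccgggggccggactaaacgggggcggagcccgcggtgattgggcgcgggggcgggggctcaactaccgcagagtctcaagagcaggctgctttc
Bcl2: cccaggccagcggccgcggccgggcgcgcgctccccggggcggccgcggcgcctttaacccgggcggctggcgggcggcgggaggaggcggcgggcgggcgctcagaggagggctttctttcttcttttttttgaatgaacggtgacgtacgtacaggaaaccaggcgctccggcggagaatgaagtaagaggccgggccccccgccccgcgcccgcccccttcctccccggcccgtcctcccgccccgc

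Grouped by role, the rows of the 4 survival members summed to 117, 120.9 and 123 CPM in OFF and 159, 177 and 167 CPM in ON. The sum was lower in each OFF library than in any ON library, and without Mcl1 it was 23.4, 27.0 and 22.8 CPM in OFF and 35.2, 41.7 and 42.8 CPM in ON. A1 entered both sums only through the Bcl2a1b row, whereas all Bcl2a1 copies together averaged 35.55 CPM in OFF and 79.98 CPM in ON. The 4 BH3-only members summed to 104.5, 106 and 132 CPM in OFF and 103, 106 and 105 CPM in ON. Here the groups overlapped, since Bad was higher and Bid lower. The effectors summed to 32.0, 32.2 and 22.6 CPM in OFF and 37.0, 32.0 and 37.8 CPM in ON. These sums carry no test, because the members were chosen with earlier results known.

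Ratios of counts between genes within a library do not depend on library scaling, although they do not give ratios of transcripts. Per 100 counts of Mcl1, Bcl2l11 had 11.4, 15.7 and 12.01 counts in OFF and 7.25, 6.39 and 8.78 counts in ON. Per 100 counts of Bcl2, it had 417, 665 and 647 counts in OFF and 152, 112 and 180 counts in ON. Per 100 counts of Bcl2l1, it had 76.8, 101.5 and 90.2 counts in OFF and 72.5, 60.8 and 61.5 counts in ON. In all 3 ratios the OFF libraries were above the ON libraries. These ratios are not separate results, since all share Bcl2l11, which was not called and whose CPM overlapped between the groups. Of the genes they are set against, Mcl1 and Bcl2 were themselves called lower, and Bcl2l1 was not called. Bax per 100 counts of Bcl2 was 222, 205 and 182 in OFF and 115, 77.9 and 108 in ON, a difference set by the larger fall of Bcl2. By contrast, Bak1 per 100 counts of Mcl1 was 28.1, 29.4 and 19.1 in OFF and 24.3, 19.3 and 25.2 in ON, and the groups overlapped.

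**Figure D4:**
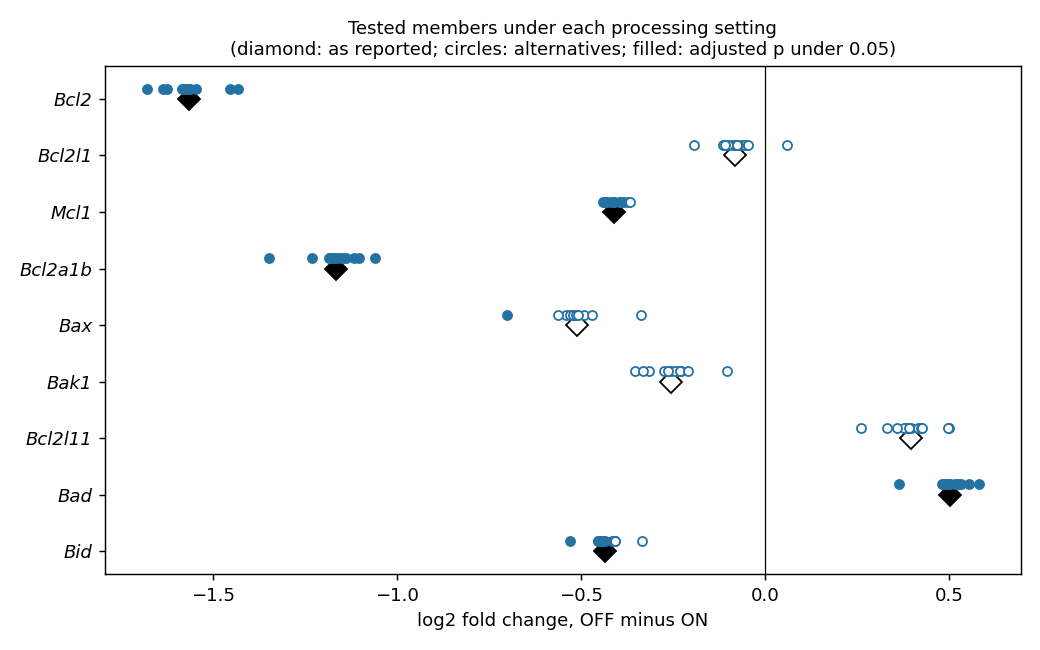
Log2 fold change, OFF minus ON (x axis), of the 9 tested members (y axis) as reported (diamonds) and under each alternative processing (circles); filled symbols have an adjusted p under 0.05. Bcl2, Bcl2a1b and Bad stay filled in all settings, whereas Mcl1 and Bid each have open circles. The filled circle of Bcl2l11 at 0.50 lies under an open one.

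Of 16 other genes of the BCL2 family, 10 were tested, and 2 rose and 2 fell. Called genes made up 40% of those tested, against 34.8% of all tested rows. The 2 that fell were Bcl2a1a and Bcl2a1d, described above, and the 2 that rose were Bnip3l and Bcl2l14. Bnip3l, a mitochondrial receptor for autophagy that is needed to clear mitochondria from maturing red cells, had 185, 249.2 and 262 CPM in OFF, against 129, 128 and 125 CPM in ON. The groups were apart (log2 fold change 0.86, SE 0.13, adjusted p = 0.000123). The erythroid marker sum was also higher in each OFF library (at least 576 CPM, against at most 212 CPM in ON), and its part in the Bnip3l difference was not tested. Bcl2l14 had 1.99, 3.89 and 4.83 CPM in OFF and 2.05, 1.70 and 1.86 CPM in ON, so OFF replicate 1 lay inside the ON range. Its call (log2 fold change 0.93, adjusted p = 0.0479) was lost without OFF replicate 2 or 3 or any 1 ON library (adjusted p = 0.102 to 0.159).

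The p53-inducible BH3-only genes did not pass. Bbc3, which encodes PUMA, had 5.54, 6.11 and 8.99 CPM in OFF and 5.01, 6.93 and 7.67 CPM in ON (log2 fold change 0.08, 95% interval -0.42 to 0.58). Pmaip1, which encodes NOXA, had 15.1, 12.99 and 19.7 CPM in OFF and 18.4, 16.7 and 16.8 CPM in ON (log2 fold change -0.12, 95% interval -0.46 to 0.22). In both genes the libraries of the groups were interleaved. Bnip3 (0.28), Bcl2l12 (0.25), Bcl2l2, which encodes BCL-W (-0.06), and Bcl2l13 were also not called. Bcl2l10, Hrk and Bok had no counts in any library, and the upper limit for such a gene, 3 counts, equals at most 0.371 CPM. Bik, Bcl2l15 and Bcl2a1c averaged at most 0.190 CPM in either group and were not tested.

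Downstream of the mitochondria, all 22 genes of the apoptosome, caspases, inhibitors of apoptosis (IAPs) and mitochondrial death factors were tested. Of these, 6 rose and 7 fell, with a median log2 fold change of 0.020. Together 59.1% of this list was called, against 34.8% of all tested rows. Cycs, the gene of cytochrome c, which triggers the apoptosome once released and otherwise carries electrons in respiration, had 112, 87.3 and 96.1 CPM in OFF, against 219, 209 and 206 CPM in ON. The OFF libraries held less than any ON library (log2 fold change -1.10, SE 0.11, adjusted p = 7.29e-06). The caspase gene Casp6 rose by 0.63, and the initiator Casp9 by 0.45 (adjusted p = 0.0371). On leaving out libraries in turn, Casp9 kept its call without OFF replicate 1 and missed the threshold without each of the others (adjusted p = 0.0763 to 0.133). Apaf1, the scaffold of the apoptosome, gave 0.31 and was not called (adjusted p = 0.143), but passed without OFF replicate 1 (0.50, adjusted p = 0.00358).

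The IAP genes Birc2, Birc3 and Xiap, whose products restrain caspases, rose as well, whereas Birc5 (-0.02) and Birc6 (-0.19) were not called. Birc2 had 15.2, 14.8 and 15.0 CPM in OFF and 8.20, 10.2 and 9.65 CPM in ON (log2 fold change 0.68, SE 0.15, adjusted p = 0.00287). The OFF libraries were tightly grouped above the ON libraries. Xiap changed by 0.43 (adjusted p = 0.013), and this call was lost without OFF replicate 2 (adjusted p = 0.0777) or ON replicate 1 (adjusted p = 0.0954). The protease gene Htra2, whose product blocks IAPs once released, fell by 0.56 on the log2 scale, and Parp1, a DNA repair gene whose product caspases cut, fell by 0.54. The other 4 that fell were Endog and the channel genes Vdac1, Vdac2 and Vdac3. Without 1 library at a time, 3 to 8 genes of this list were higher (3 without OFF replicate 2 or ON replicate 1) and 4 to 7 lower (4 without OFF replicate 2 or any 1 ON library).

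**Figure D5:**
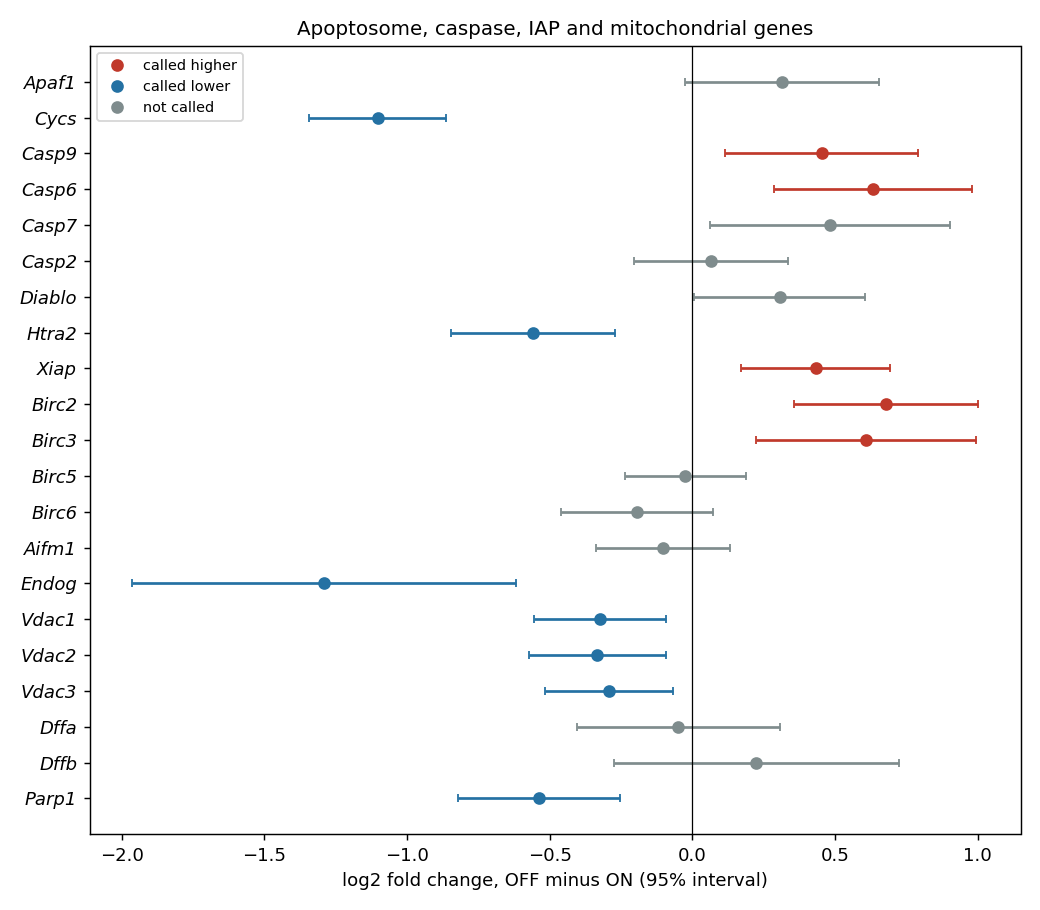
Log2 fold change, OFF minus ON (x axis), with its unadjusted 95% interval for the reported genes of the apoptosome, caspase, IAP and mitochondrial death factor list (y axis). Casp6, Casp9, Xiap, Birc2 and Birc3 lie to the right of 0, and Cycs (-1.10) is among the 7 genes called lower.

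Of 16 death receptor pathway genes, 14 were tested, and 2 rose and 2 fell (median log2 fold change 0.23). The share called, 28.6%, was below the 34.8% of all tested rows. Tnfrsf1a, a receptor for tumour necrosis factor, had 62.9, 68.5 and 83.3 CPM in OFF and 46.8, 46.9 and 45.3 CPM in ON (log2 fold change 0.63, SE 0.12, adjusted p = 0.00103). Its OFF libraries were all above its ON libraries. The adaptor gene Fadd rose by 0.45 (adjusted p = 0.0257) and missed the threshold when OFF replicate 2 or any ON library was left out (adjusted p = 0.0623 to 0.1005). Those that fell, named here after their values were seen because they are below the level set for naming, were the death receptor gene Tnfrsf10b (1.81 ± 0.139 CPM in OFF and 5.45 ± 1.07 CPM in ON) and Tnf (2.95 ± 1.01 CPM in OFF and 6.12 ± 0.805 CPM in ON; SD, n = 3 each). Their log2 fold changes were -1.58 and -1.05 (adjusted p = 0.000457 and 0.00671). Casp8, which cuts BID, gave 0.02 with a 95% interval of -0.29 to 0.33, and Fas gave 0.02 and the caspase-8 inhibitor gene Cflar 0.18, none of which passed. Without 1 library at a time, 1 to 4 genes were higher (4 without OFF replicate 1, and 1 without OFF replicate 2 or any 1 ON library).

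Of 28 genes whose products control BCL2 family genes or proteins, 27 were tested, and 5 rose and 3 fell (median log2 fold change 0.041). This is 29.6% called, below the 34.8% of all tested rows. Pim1, a kinase gene under STAT5 control whose product phosphorylates BAD, had 66.6, 40.4 and 40.5 CPM in OFF, against 200, 199 and 219 CPM in ON. The groups were far apart (log2 fold change -2.07, SE 0.17, adjusted p = 3.9e-06). The other kinases and phosphatases that act on BAD or BIM did not change as a class. Rps6ka1 rose by 0.57 (159 ± 2.63 CPM in OFF and 107 ± 4.29 CPM in ON, SD, n = 3 each), Mapk8 by 0.63 and Ppp3ca by 0.51. Akt1 (-0.06), Akt2 (0.04) and Pim2 (0.15) were not called. Stat3 and Foxo4 were the other genes that rose. Huwe1, which encodes a ubiquitin ligase of MCL1, had 95.4, 76.0 and 48.5 CPM in OFF and 104, 114 and 110 CPM in ON (log2 fold change -0.58, adjusted p = 0.0391), and missed the threshold when OFF replicate 2 or any ON library was left out (adjusted p = 0.0773 to 0.11). The gene Dynll2, whose product tethers BMF, fell by 0.29 on the log2 scale (adjusted p = 0.0498) and missed the threshold in 10 of 13 alternatives, among them those without OFF replicate 2 or an ON library (adjusted p = 0.113 to 0.181). The transcription factor genes Trp53 (-0.15), Foxo3 (-0.19) and Stat5a (0.06) did not pass. Without 1 library at a time, 3 to 6 genes of this list were higher (3 without OFF replicate 2, ON replicate 2 or ON replicate 3) and 1 to 4 lower (1 without OFF replicate 2 or any 1 ON library).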

How the data were processed

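RNA of viable sorted leukaemic cells (the gate is not stated) was read near the 3′ ends of mRNAs with a Lexogen QuantSeq kit, per the labels' protocols. The submitters' processing notes name HISAT2 2.0.4, featureCounts from Subread 1.6.3, limma 3.42.2 and build mm10. For annotation, strand and multi-mapping reads, the settings were not given in the sources used here. Raw counts were deposited for 54838 rows, of which 1105 without a name (0.145% to 0.172% of counts) were left out. A second table the authors deposited holds normalised log2 values for 12287 genes and was used only as an alternative.

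Counts were tested in R 4.3.3 with edgeR 4.0.16 (filterByExpr with a minimum count of 10 and minimum total of 15, TMM, glmQLFit and glmQLFTest), OFF against ON with no covariate, and p-values were adjusted by the Benjamini-Hochberg method over 13652 rows. The SE came from F and the log2 fold change. CPM uses TMM-scaled library sizes, and n is 3 mice per group. An exact permutation of 3 against 3 cannot give a two-sided p below 0.1. Limits from counts cover counting error only, since PCR copies were not told apart by molecular identifiers.

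Alternatives were RLE size factors, TMM without ribosomal RNA locus rows, DESeq2 1.42.0, limma 3.58.1 on the log2 table, no filter on low counts, at least 10 CPM in 3 libraries, a replicate block, each library left out in turn, and summed Bcl2a1 copies. The members and gene lists were chosen with earlier results of these data known. Named genes were all members and other family genes, set genes of the downstream and regulator lists, and, in each such list and direction, up to 3 called genes with the smallest p and a mean of at least 5 CPM. Some further genes of these lists are named to complete a group. Gene positions and overlaps come from GENCODE M21 (GRCm38, the same assembly as mm10) and start site windows from RefSeq. Protein sequences were not used here, and some genes of the lists, though counted in them, are not reported here.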

Additional observations from a re-analysis of the deposited data

How the results depend on the processing

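Over 42 single genes and the alternatives that gave a value, 479 of 537 values kept their direction and side of the threshold, 41 lost a call, 3 gained one and 14 changed sign. The counts of all called rows stayed within 1.5 times, at 1615 to 2704 higher and 1679 to 2740 lower with each library left out in turn, and 1783 and 2019 by DESeq2. Members called higher numbered 2 by DESeq2 and with no filter on low counts, as Bmf was added, and 1 to 3 on leaving out each library, with 2 to 5 lower. Other family genes called higher numbered 1 by DESeq2, by limma on the authors' table, at 10 CPM and with the replicate block, and 1 to 2 on leaving out each library. Apoptosome and caspase genes called lower numbered 4 with the replicate block and 4 to 7 on leaving out each library (3 to 8 higher). Death receptor genes called higher numbered 1 by DESeq2 and with no filter, 4 at 10 CPM and 1 to 4 on leaving out each library; at 10 CPM edgeR called 0 lower, with 0 at an unadjusted p under 0.05, because the genes called lower did not pass that filter. Regulators called lower numbered 1 by limma on the authors' table and 1 to 4 on leaving out each library (3 to 6 higher). No pairing of the mice by replicate number was visible, although 3 libraries per group cannot exclude one. Same-numbered libraries deviated with correlations of 0.035, -0.076 and -0.05, and not every library matched its own number best. With the replicate block 2173 rows were higher and 2231 lower, and 1 member was higher and 4 lower. No member that had been called changed sign. On leaving out each library, the log2 fold changes of some uncalled genes near 0 turned sign, with the cause not tested: they spanned -0.1934 to 0.0595 for Bcl2l1, -0.2645 to 0.11 for Bcl2l2, -0.16 to 0.212 for Bbc3, -0.3001 to 0.0074 for Pmaip1, -0.2218 to 0.061 for Bcl2l13, -0.093 to 0.1546 for Casp8 (-7e-04 with no filter), -0.28 to 0.2207 for Fas and -0.3675 to 0.048 for Foxo3. Counts per library were as low as 3 to 35 for Bmf and 17 to 68 for Bcl2. Casp9 also missed the threshold by DESeq2 (adjusted p = 0.114) and with the replicate block (adjusted p = 0.0502).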
